A study of Chamaelirium luteum with 2 samples.

Results

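The regions described here are clusters of 3 or more close ATAC-seq peaks on the 22 large scaffolds of *Cha. luteum* (*Chamaelirium luteum*). The clusters were chosen by peak position alone. In each library, peaks of 1000 bp or wider were left out, neighbouring peaks with less than 2000 bp between them were joined into a chain, and a chain of at least 3 peaks was kept as a cluster if it overlapped such a chain of the other library. Of 30667 chains in replicate 1 and 31865 in replicate 2, a single peak being a chain of 1, 878 and 1011 held at least 3 peaks, and 487 in each library were kept. They overlapped in a strict pairing, 1 cluster of replicate 1 to 1 of replicate 2, and each overlapping pair is called a locus below. The 487 loci hold 1528 of the 37587 narrow peaks of replicate 1 (4.07%) and 1536 of the 39652 of replicate 2 (3.87%). Without the overlap, all chains of 3 or more held 7.26% and 7.98%.

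Both libraries were made from nuclei of fresh leaves, about 75000 nuclei each, and belong to 1 condition, without any treatment, genotype or stage to compare. The study states that its sequenced tissues came from different plants of 1 greenhouse, chosen at random, but not which plants gave these libraries, so an SD between them (n = 2) may be technical. The labels of both libraries share a code, but the names of the deposited peaks of replicate 2 carry a different one. The label was followed, and whether the codes stand for different plants is not known here. Since the positions of these same peaks chose the clusters, every value below is a description and none was tested.

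ATAC-seq uses the Tn5 transposase, which cuts and tags DNA mainly where nucleosomes are absent, so that peaks mark accessible chromatin. In plants, accessible regions are known mostly from promoters just upstream of gene starts, from sequence near gene ends, and from distal elements that lie away from genes. Several accessible regions can sit close together around a compact gene, between genes that are near neighbours, or across a regulatory region made of several elements. The gene annotation of *Cha. luteum* was not used here, so the clusters are given by position and peak values and are assigned to none of these.

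Most narrow peaks on these scaffolds had no other narrow peak closer than 2000 bp. Such single peaks were 24720 of 37587 in replicate 1 and 25219 of 39652 in replicate 2. The median gap between neighbouring narrow peaks was 8908 bp in replicate 1 and 8482.5 bp in replicate 2, and 18.4% and 19.6% of the gaps were under 2000 bp. Most close peaks came as pairs, with 5069 chains of 2 in replicate 1 and 5635 in replicate 2. Chains of 3 numbered 803 and 896, chains of 4 numbered 62 and 104, and larger ones 13 and 11. Chains of 3 or more were thus 2.86% and 3.17% of all chains.

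Nearly all clusters were small. Of the 487, 434 held 3 peaks in replicate 1 and 425 in replicate 2, 42 and 53 held 4, and 9 and 7 held 5. Replicate 1 had 1 cluster of 6 and 1 of 7, and replicate 2 had 2 of 7. Clusters of 4 or more peaks thus made up 11.8% ± 1.31 of the clusters (SD, n = 2 libraries), and 34 loci reached 4 peaks in both libraries and 6 reached 5.

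The kept clusters lay at nearly the same bases in both libraries, which the rule favours. It kept 55.5% of the chains of 3 or more in replicate 1 and 48.2% in replicate 2, those that overlapped such a chain of the other library. The values below are thus no measure of the agreement over all chains. The peak number was equal at 435 of the 487 loci (89.3%), higher in replicate 1 at 23 and higher in replicate 2 at 29, and it differed by 2 or more at 4. Every peak of the locus overlapped a peak of its partner cluster at 417 loci (85.6%). In the median locus, the sequence spanned by both clusters was 97.7% of that spanned by either, and at 421 loci it was at least 90%. The poorest fit was a locus with 22.2%, and 9 loci stood under 50%. The span of replicate 2 minus that of replicate 1 had a median of 5 bp.

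Single peaks within the loci matched as closely in position as the loci did. Over 1485 matched pairs of peaks, the summits, the bases with the highest signal, lay a median of 38 bp apart, and 60.9% lay within 50 bp. The fold enrichment, which MACS gives as the signal at the summit over a modelled background, had a Spearman correlation of 0.846 between the libraries over these pairs. Replicate 2 had the higher value, by a factor of 1.06 for the median pair, and 97.0% of the pairs agreed within a factor of 1.5. Over the 487 loci, the median fold of a cluster had a Spearman correlation of 0.750. Peaks of 1 genome share their sequence and mappability between the libraries, so these correlations are no count of independent points.

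**Figure D1:**
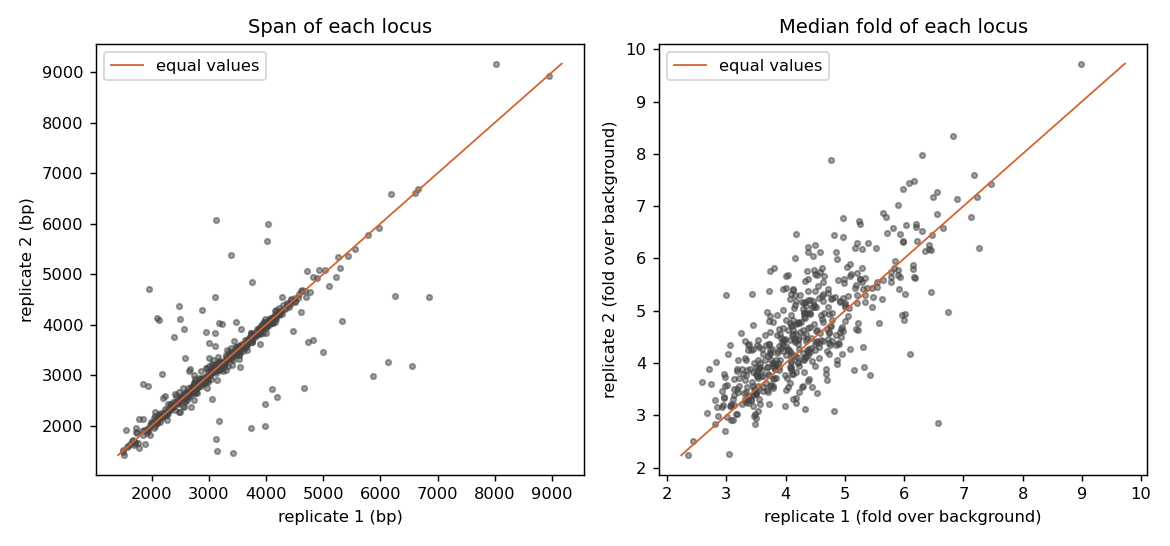
Each point is 1 of the 487 loci, with its span in bp (left) or the median fold enrichment of its peaks (right) in replicate 1 on the horizontal and in replicate 2 on the vertical axis; the line marks equal values. Most spans sit on the line, and the points far from it are loci where 1 library holds an outer peak that the other lacks or joins differently.

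Of the cluster peaks, 97.5% in replicate 1 and 96.9% in replicate 2 overlapped a peak of the other library, against 81.7% and 77.3% of all narrow peaks. The rule asks for an overlap of the chains and so favours such peaks. The 38 and 47 cluster peaks without a counterpart stood near the calling threshold, with a median -log10 q of 5.02 and 5.62, against 13.6 and 15.8 for those with one. The -log10 q is the significance of a peak after correction over the genome, and the lists begin at 2.

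The clusters spanned a few kilobases. The median span from the first to the last peak was 3143 bp in replicate 1 (range 1496 to 8950) and 3182 bp in replicate 2 (1415 to 9168). Clusters of 3 peaks had median spans of 3065.5 and 3104 bp, and clusters of 4 had 4168 and 4021 bp. Peaks covered a median of 39.2% and 38.9% of a cluster's span, with a range of 16.0% to 75.6% in replicate 1 and 19.7% to 80.3% in replicate 2. In all, the clusters spanned 1588 kb and 1590 kb, or 0.220% of the 22 scaffolds in both libraries.

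Gaps inside the clusters filled the allowed range down to a floor near 180 bp. The 1041 gaps of replicate 1 had a median of 896 bp and ran from 183 to 1977 bp, and the 1049 gaps of replicate 2 had a median of 873 bp and ran from 178 to 1976 bp. The lowest gap between any narrow peaks of the lists was 180 and 178 bp. It lay close to the width of the narrowest peaks, of 179 and 177 bp, and the origin of this floor was not tested. Gaps of 500 to under 1000 bp made up 33.1% and 34.6%, and those of 1000 to under 1500 bp 25.8% and 25.7%. Gaps of 1500 to under 2000 bp made up 16.8% and 16.3%. Gaps of 250 to under 500 bp, a narrower class, made up 20.3% and 17.9%. Since these classes differ in width, their shares do not rank the gap lengths. In classes of 100 bp, as the plot of gaps shows, the counts above the floor varied little up to about 1000 bp, without a class that stood apart in both libraries, and were lower beyond.

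**Figure D2:**
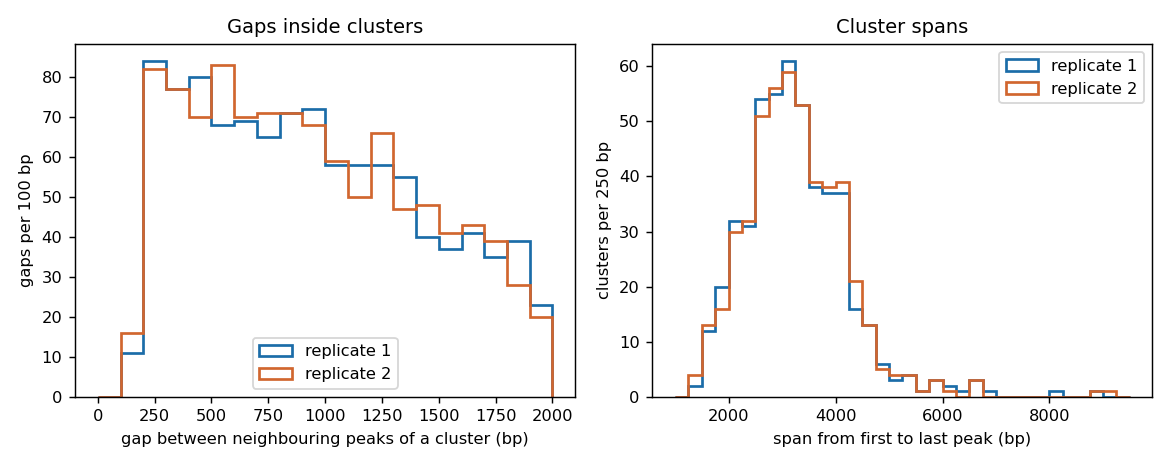
The left panel counts the gaps in bp between neighbouring peaks of a cluster in classes of 100 bp, and the right panel counts the clusters by span in bp in classes of 250 bp, with a line for each library. The gaps begin at 183 and 178 bp and are fewer per class in the upper part of the range up to the limit of 2000 bp, and the spans gather around their medians of 3143 and 3182 bp.

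Peaks in clusters of 4 or more were spaced like those in smaller chains. Their median gap was 905 bp in replicate 1 and 853 bp in replicate 2, and that of chains of 2 was 829 and 839 bp. The distance from summit to summit inside clusters had a median of 1277 bp in both libraries and ran from 375 to 2833 bp in replicate 1 and from 377 to 2911 bp in replicate 2. Under 500 bp lay 1.83% and 2.19% of these distances.

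The peaks of a cluster were not evenly spaced. In clusters of 3, the larger of the 2 gaps was 1.77 times the smaller in the median cluster of replicate 1 and 1.74 times in replicate 2, and 40.8% and 40.0% of these clusters had a ratio of 2 or more. The left and the right gap showed almost no relation, with Spearman correlations of 0.0121 over 434 clusters and 0.0240 over 425. The tightest loci by mean gap lay on scaffold 13 (13196074 to 13197593, mean gap 252 bp in replicate 1 and 227.5 bp in replicate 2), scaffold 21 (4183402 to 4185095, 276.5 and 256.5 bp) and scaffold 11 (29369570 to 29371757, 250.5 and 289 bp), all with 3 peaks in both libraries. On scaffold 13 the 3 peaks climbed in 1 direction along the scaffold, with folds of 2.90, 3.45 and 7.88 in replicate 1 and 3.14, 3.56 and 7.19 in replicate 2. On scaffold 21 the folds were nearly level in replicate 1 (3.51, 4.32 and 4.10) and differed more in replicate 2 (4.04, 3.39 and 5.09), and the highest peak was not the same.

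No position inside a cluster held the strongest peak more often than the others by a wide margin. In clusters of 3, the highest fold was in the first peak along the scaffold in 143 clusters of replicate 1, in the middle peak in 145 and in the last in 146. In replicate 2 the numbers were 125, 143 and 157. The middle peak was thus the strongest in 33.4% and 33.6%. The median fold of the first, middle and last peak was 4.21, 4.30 and 4.25 in replicate 1 and 4.46, 4.61 and 4.66 in replicate 2. The last peak was the widest somewhat more often than the first, in 154 against 134 clusters and in 164 against 117. The direction along a scaffold is set by the assembly and has no known biological meaning.

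Inside most clusters the folds of the peaks differed by less than a factor of 2. The folds of all cluster peaks also lay close together, with quartiles of 3.42 and 5.36 in replicate 1 and 3.51 and 5.77 in replicate 2. Whether peaks of 1 cluster are more alike than peaks of different clusters was not tested. The highest fold was 1.76 times the lowest in the median cluster of replicate 1 (range 1.03 to 3.68) and 1.87 times in replicate 2 (1.03 to 4.72). It was under 2 times in 64.3% and 58.9% of the clusters. The strongest peak of a cluster had a median fold of 5.81 and 6.39, and the weakest 3.25 and 3.38. The strongest peak was the same in both libraries at 363 of all 487 loci (74.5%). Among the 391 loci with 3 peaks in both libraries, all matched, it was the same at 75.7%. Every peak had a -log10 q of at least 5 in 374 clusters of replicate 1 and 401 of replicate 2, and 1 cluster of replicate 1 and 0 of replicate 2 consisted of peaks under 5 alone.

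Cluster peaks carried more signal than other narrow peaks but had a lower fold. The signal is the number of fragments stacked at the summit, which was recovered from the deposited fold and p-value. Cluster peaks had medians of 45 fragments in replicate 1 and 47 in replicate 2, and the other narrow peaks 31 in both libraries. The background that MACS modelled for the same peaks had a median of 9.97 and 9.96 fragments in clusters and 5.62 and 5.34 elsewhere. The fold had a median of 4.15 and 4.42 in clusters and 4.75 and 5.02 elsewhere, a difference of -0.597 ± 0.00763 (SD, n = 2). With all chains of 3 or more of a single library in place of the clusters, it was -0.837 in replicate 1 and -0.942 in replicate 2, and among only peaks shared by the libraries -1.23. Peak widths hardly differed, with medians of 359.5 and 361.5 bp in clusters and 362 and 359 bp elsewhere.

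The rule favours peaks found in both libraries, which are stronger on average, so the classes were also compared among such peaks alone. Among peaks that overlapped a peak of the other library, the median number of summit fragments was 35 in replicate 1 and 38 in replicate 2 for single peaks, 38 and 40 for peaks in pairs, and 45 and 48 for cluster peaks. The background followed the same order, with 5.47 and 5.20, 7.16 and 6.90, and 10.001 and 9.97 fragments. The fold went the other way, from 5.59 and 6.28 for single peaks over 4.83 and 5.25 in pairs to 4.19 and 4.48 in clusters, and so did the width, from 413 and 425 bp over 388 and 394 bp to 363 and 366 bp. MACS takes the background from the reads around a peak, and the reads of neighbouring peaks are among them. How much of the higher background comes from the neighbours was not tested.

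**Figure D3:**
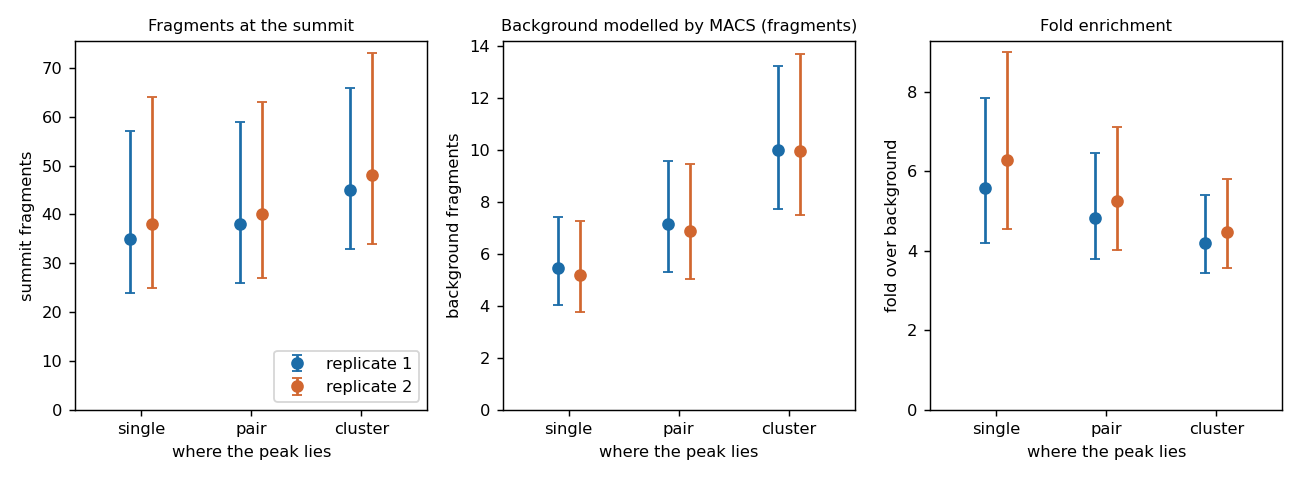
Points are medians and bars the 25th to 75th percentiles over narrow peaks with a counterpart in the other library, for single peaks, peaks in chains of 2 and cluster peaks, in each library. From single peaks to clusters the fragments at the summit rise from 35 and 38 to 45 and 48, the background from 5.47 and 5.20 to 10.001 and 9.97 fragments, and the fold falls from 5.59 and 6.28 to 4.19 and 4.48.

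Peaks with a very high fold were rare in clusters. A fold of 10 or more was reached by 0.654% of cluster peaks in replicate 1 and 1.63% in replicate 2, and by 7.17% and 10.9% of the other narrow peaks. The highest fold was 11.6 and 12.8 in clusters and 27.0 and 31.5 elsewhere. A -log10 q under 5 was found for 8.97% and 6.51% of cluster peaks and for 17.5% and 16.5% of the others, but among peaks with a counterpart in the other library the shares were close, with 7.92% and 5.24% in clusters and 8.55% and 6.63% of single peaks. At the genome-wide background, the floor of the modelled values at 3.38 and 3.18 fragments, stood 0.458% and 0.326% of cluster peaks and 19.0% and 19.5% of single peaks.

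In the larger clusters the background was higher still. Peaks of clusters of 4 or more had a median background of 12.0 fragments in replicate 1 and 12.4 in replicate 2, with 48 and 47 fragments at the summit and a fold of 3.61 and 3.74. In 48 clusters of replicate 1 and 73 of replicate 2 the median background was over 5 times the genome-wide one, and in 1 and 3 clusters it was over 10 times. A background over 5 times the genome-wide one was found for 10.8% and 15.8% of cluster peaks and for 0.688% and 1.21% of single peaks. Whether such places differ in copy number or read mapping was not tested.

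The largest locus lay on scaffold 2 from 57633082 to 57642077 and held 7 peaks in both libraries, all matched. It spanned 8950 bp in replicate 1 and 8929 bp in replicate 2. Its peaks were weak and even, apart from the sixth. The folds in order were 3.16, 2.86, 2.83, 2.61, 2.48, 5.10 and 2.81 in replicate 1, and 2.53, 3.74, 3.17, 2.56, 2.32, 4.37 and 3.52 in replicate 2. The sixth peak, also the widest with 701 and 625 bp, had 91 and 76 fragments at its summit, while the fifth had 49 and 46.

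Next came a locus at the very start of scaffold 22, from 8332 to 17545, where replicate 1 had 6 peaks and replicate 2 had 7. The last peak of replicate 2, with a fold of 2.84, had no counterpart and set the span of 9168 bp against 8011 bp. The other 6 peaks were matched. The strongest was the second in both libraries, with a fold of 4.47 and 5.25 and a width of 716 and 837 bp.

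A locus on scaffold 8 from 1740916 to 1747534 had 5 peaks in both libraries and the highest background of these large loci. The background at its peaks was 32.9 to 42.8 fragments in replicate 1 and 39.6 to 50.3 in replicate 2, about 10 times the genome-wide value or more. Strong and weak peaks alternated. The folds in order were 2.96, 6.57, 2.94, 6.95 and 2.27 in replicate 1 and 3.20, 6.68, 3.78, 6.22 and 2.71 in replicate 2, so that the peaks next to the outermost on either side stood above their neighbours in both. These 2 peaks had 279 and 278 fragments in replicate 1 and 334 and 295 in replicate 2.

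The remaining loci with 5 peaks in both libraries lay on scaffold 22 from 2125797 to 2132380, on scaffold 6 from 8666681 to 8671367 and on scaffold 18 from 2830468 to 2835560. On scaffold 22 only 4 peaks were matched, since each library held 1 weak peak that the other lacked, with a fold of 2.43 in replicate 1 and 2.93 in replicate 2. On scaffold 6 all folds were between 2.50 and 3.97. On scaffold 18 the peaks in the centre were the strong ones, with folds of 3.94, 3.79 and 3.94 in replicate 1 and 3.99, 4.49 and 5.11 in replicate 2, while the outer peaks had 2.49 and 1.95, and 2.19 and 2.07. The locus on scaffold 13 from 22819291 to 22825980, among the 3 longest, held 5 peaks in replicate 1 and 4 in replicate 2 over 6656 and 6689 bp. A peak with a fold of 2.18 in replicate 1 was absent from replicate 2, where 1484 bp separated its neighbours.

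**Figure D4:**
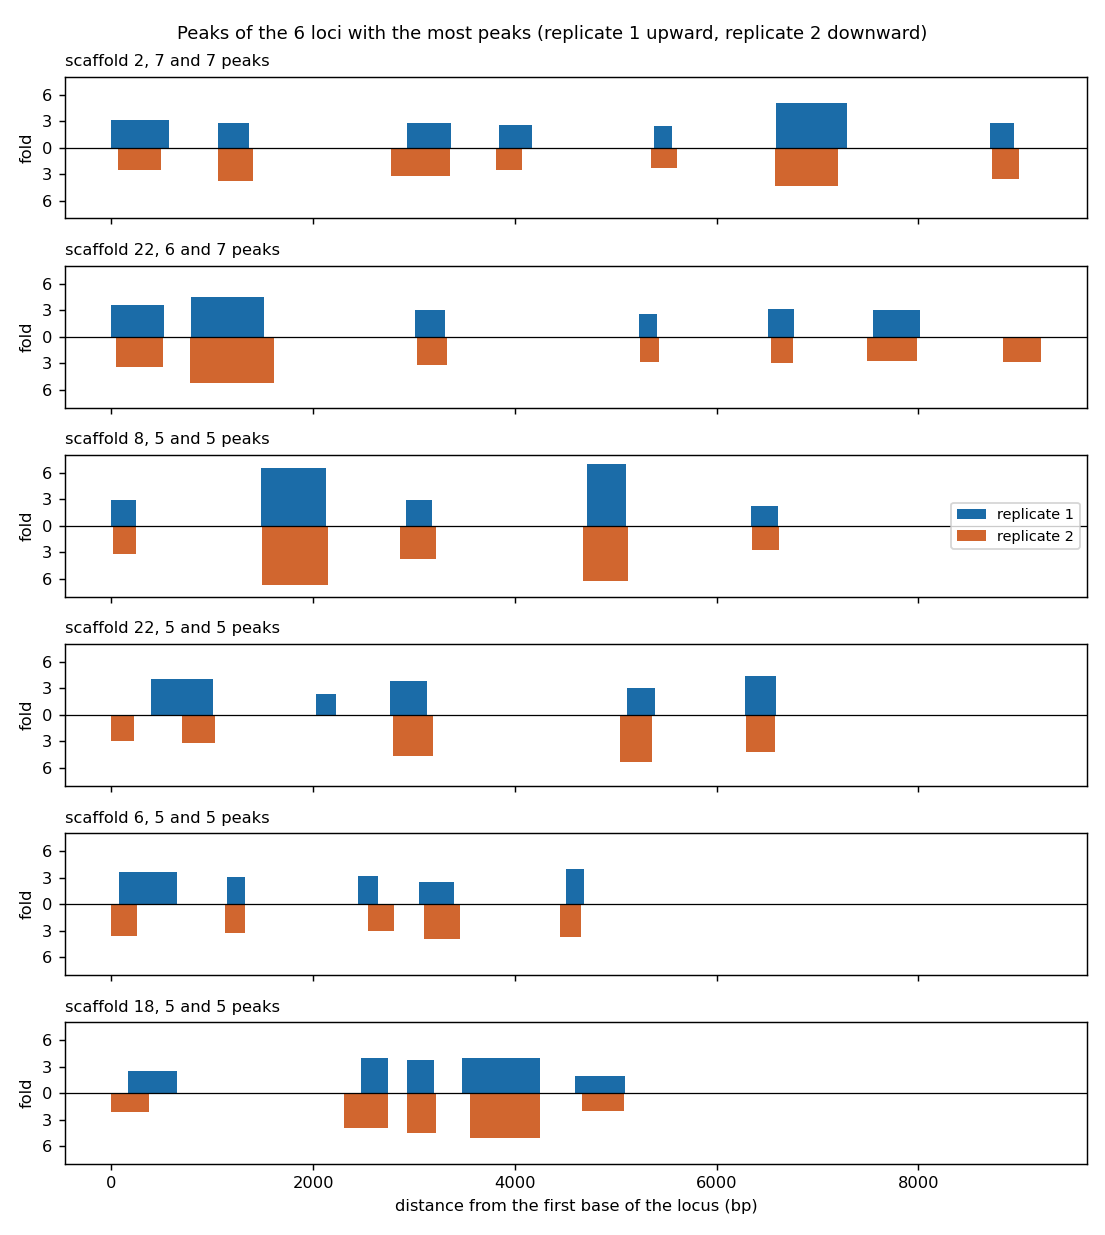
Peaks of the 6 loci with the most peaks, drawn to scale in bp from the first base of the locus, with the height of each block giving its fold enrichment, upward for replicate 1 and downward for replicate 2. Blocks face each other at nearly every position, except for the last peak on the locus at the start of scaffold 22 and 1 peak per library on the other locus of scaffold 22, and on scaffold 8 the blocks next to the outermost stand out in both libraries.

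The 3 loci with the highest median fold each held 3 peaks. Those on scaffolds 1 and 19 were tight, with mean gaps of 449.5 and 448 bp, and of 488.5 and 481 bp. The one on scaffold 5 was spaced much like other clusters, with mean gaps of 857.5 and 805.5 bp. On scaffold 1, from 16040199 to 16042306, the folds were 3.51, 8.99 and 10.8 in replicate 1 and 3.48, 9.73 and 10.7 in replicate 2. With 117, 282 and 341 fragments, and 133, 351 and 389, at the summits, the last peak had the most fragments of any cluster peak, and the background was 30.5 to 32.6 and 35.2 to 37.5 fragments. On scaffold 5, from 26798409 to 26801124, the folds were 3.45, 6.98 and 6.83 in replicate 1 and 4.21, 8.35 and 9.35 in replicate 2, over an ordinary background of 7.71 to 8.52 fragments. On scaffold 19, from 11946869 to 11949009, they were 7.46, 7.75 and 4.83, and 7.42, 9.79 and 5.68. All 3 loci held 1 weaker peak at an edge beside a pair of strong ones, the same in both libraries.

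The rule cuts a continuous range, and few clusters stood at its limits of gap and width. Most stood at its limit of peak number, since 434 of the 487 clusters in replicate 1 and 425 in replicate 2 held the minimum of 3 peaks. The largest gap of a cluster was within 100 bp of the limit in 22 clusters of replicate 1 and 20 of replicate 2. Just outside, 6 and 4 clusters had a further narrow peak less than 100 bp beyond the limit, and so had 46 and 65 chains of 2. Of the member peaks, 3 and 5 were at most 50 bp narrower than the width limit, and 2 and 1 clusters had a peak less than 50 bp above that limit within 2000 bp. A left-out wide peak of any width lay that close to 2 clusters in each library, and 0 clusters held one inside. By the rule itself, no outside narrow peak lay closer than 2000 bp to a cluster. The nearest one, on the closer side, was at a median distance of 6321 and 6335 bp. This distance is not set beside that of single peaks or pairs, so it does not show that clusters are isolated.

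Many chains were not kept because the other library had fewer peaks there, not because it had none. Of the 391 unmatched chains of replicate 1 and 524 of replicate 2, 270 and 329 covered 2 narrow peaks of the other library, 88 and 150 covered 1, 14 and 15 covered none, and 19 and 30 covered 3 or more that were not chained there. Of the peaks in them, 64.4% and 60.5% overlapped a peak of the other library. Those that did not were weak, with a median fold of 3.19 and 3.29 and a median -log10 q of 5.09 and 5.57, while those that did had folds of 4.23 and 4.54. The share kept was 54.0% and 47.4% of chains of 3 and 70.7% and 53.9% of longer ones.

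The longest chain of either library was among those lost. It lay on scaffold 16 from 4767610 to 4779727 in replicate 1 and held 9 peaks over 12118 bp. Replicate 2 had 5 peaks there, with gaps of 3216 and 2793 bp that broke the chain into 2 pairs and a single peak. The peaks missing from replicate 2 were peaks 3, 6 and 7 of replicate 1, with folds of 2.44, 2.69 and 3.17, and a peak of 986 bp in replicate 2 covered peaks 8 and 9. This chain was picked out after its values were seen.

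Along the scaffolds, the clusters lay almost wholly outside the centromeres, and so did the narrow peaks as a whole. The 8 centromere intervals that the study lists held 1 locus in 92.3 Mb, or 0.0108 per Mb, and the 631 Mb outside held 486, or 0.771 per Mb. This locus, on scaffold 4 from 32286764 to 32290334, was 3136 kb from the nearer edge of the centromere. It had 3 matched peaks of ordinary fold, at 3.32, 3.61 and 4.15 in replicate 1 and 3.75, 3.89 and 3.13 in replicate 2, with 18, 25 and 30, and 20, 28 and 23 fragments. All narrow peaks are sparse in these satellite-rich intervals, where reads that match several places were removed. The low number of loci per Mb there is thus not particular to clusters. How far it follows from the sparse peaks was not tested. The count of 1 rests on few peaks, since none was left once peaks with a -log10 q under 5 were dropped, and each library alone, with no overlap asked, had 3 chains of 3 or more in the centromeres, at 1.39 and 1.60 such chains per Mb outside. Within 2 Mb outside a centromere edge lay 9 loci, or 0.346 per Mb, against 0.614 farther out on the same scaffolds. Narrow peaks were fewer there too, at 44.3 per Mb in replicate 1 and 51.5 in replicate 2 against 57.5 and 61.0, and 2.43% and 2.09% of them were in clusters against 3.36% and 3.20%.

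Clusters were found on 21 of the 22 scaffolds, at densities that ran from 1.54 loci per Mb on scaffold 15 and 1.53 on scaffold 18 to 0.465 on scaffold 20 and 0 on scaffold 17. Scaffolds 17 and 20 have only 2.59 and 2.15 Mb outside their centromeres. Scaffolds 15 and 18 were also among the 4 scaffolds densest in narrow peaks, with 67.6 and 67.4 per Mb, but scaffold 2, with 67.0 narrow peaks per Mb, had 0.717 loci per Mb. On scaffold 18, 7.42% of the narrow peaks of replicate 1 and 7.16% of those of replicate 2 were in clusters, on scaffold 15 7.34% and 6.70%, and on scaffold 2 3.37% and 3.38%. Scaffold 13 came next, with 1.33 loci per Mb and 6.47% and 6.40% of its narrow peaks in clusters. Over the 22 scaffolds, loci and narrow peaks per Mb had a Spearman correlation of 0.685, and of 0.638 without scaffold 17. The narrow peaks include those in clusters.

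The 14 scaffolds without a listed centromere held 348 loci at 0.882 per Mb, and the 8 with one held 138 outside it at 0.584 per Mb. They also differed in the density of narrow peaks, of 61.2 per Mb in replicate 1 and 64.0 in replicate 2 against 56.0 and 60.0, and in the share of these peaks in clusters, with 4.52% and 4.33% against 3.28% and 3.10%. Single scaffolds of the 2 sets overlapped, with 0.479 to 1.54 loci per Mb without a listed centromere and 0 to 0.716 with one. Over all 22 scaffolds, loci per Mb and scaffold length had a Spearman correlation of -0.385. Scaffolds are not whole chromosomes, and one without a listed centromere may belong to a chromosome that has one. On scaffold 9, where narrow peaks averaged 41.1 per Mb, the first of 19 loci began only at 17571993, and the start of this scaffold is poor in peaks of any kind.

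**Figure D5:**
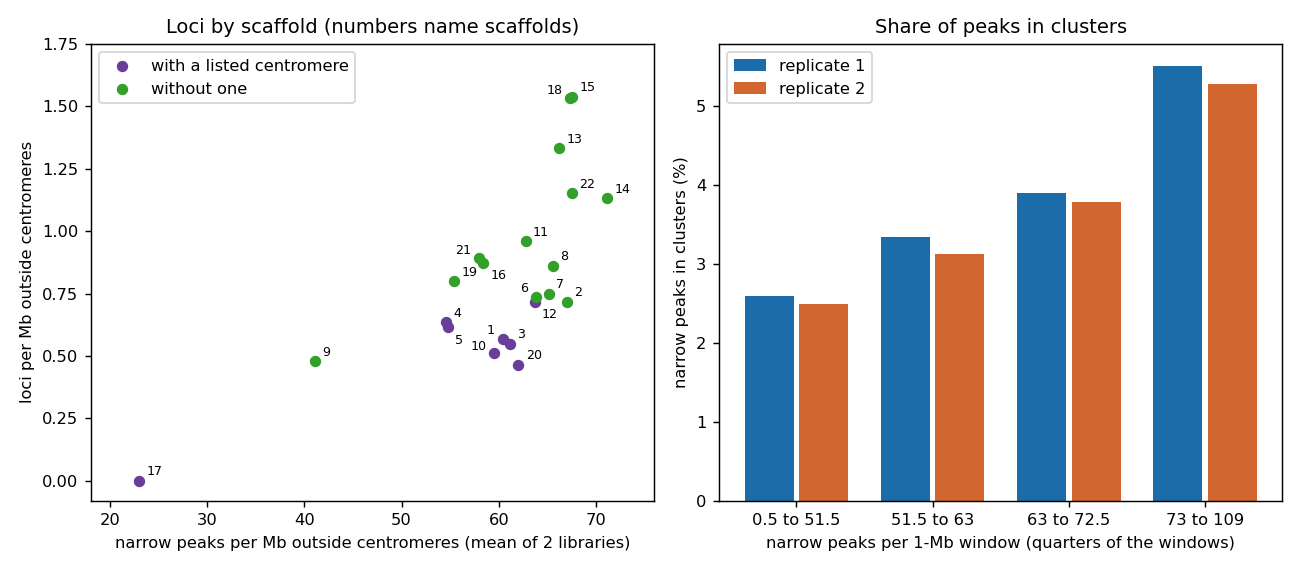
On the left, each numbered point is a scaffold, with its narrow peaks per Mb outside centromeres on the horizontal and its loci per Mb there on the vertical axis; scaffolds 15 and 18 lie at the top, with peak densities near those of scaffold 2. On the right, bars give the percentage of narrow peaks that lie in clusters for 1-Mb windows. The windows are sorted by their number of narrow peaks, cluster peaks included, into 4 groups of nearly equal size. The percentage climbs from 2.59 and 2.49 to 5.51 and 5.27.

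Windows with more narrow peaks held more loci. The narrow peaks counted include those of the clusters themselves, so such an order is in part built in. Of 611 windows of 1 Mb outside the centromeres, 305 held no locus, 195 held 1, 73 held 2, 25 held 3 and 13 held 4 or more. With the windows sorted by narrow peaks into 4 groups of 152 or 153, the poorest group held 46 loci, the next 90 and 127, and the richest 213, or 44.7% of the loci in windows. The share of narrow peaks that lay in clusters grew with the same order, from 2.59% over 3.34% and 3.90% to 5.51% in replicate 1 and from 2.49% over 3.13% and 3.78% to 5.27% in replicate 2. More peaks per window leave less room between them, and how far this alone gives the growth was not tested. The Spearman correlation of loci and narrow peaks over the windows was 0.402.

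The fullest windows, with 6 loci each, were on scaffold 18 from 2000001 to 3000000 and on scaffold 15 from 11000001 to 12000000 and from 14000001 to 15000000. As means of the libraries, they held 109, 82.5 and 75 narrow peaks. In clusters were 20 peaks of replicate 1 and 21 of replicate 2 on scaffold 18, 20 and 19 in the first window of scaffold 15, and 18 and 18 in its other one. The last window thus held as many loci as the first with fewer peaks.

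Neighbouring loci were mostly far apart. The median distance from one locus to the next on a scaffold was 783 kb, with quartiles of 266 and 1627 kb, and 59 of 466 distances were under 100 kb. Only 2 were under 10 kb. The closest pair lay on scaffold 8, from 8134864 to 8138493 and from 8142959 to 8146970, 4.47 kb apart. Its clusters held 3 and 5 peaks in replicate 1 and 4 and 4 in replicate 2, so that 8 peaks in each library fell into about 12 kb. Other close pairs lay on scaffold 2 from 47427052 to 47429391 and from 47437644 to 47441746, 8.25 kb apart, and on scaffold 14 from 11148948 to 11151880 and from 11162695 to 11165394, 10.8 kb apart. On scaffold 14 both clusters were strong and alike in the 2 libraries, with folds rising along the scaffold from 3.15 to 6.97 and from 4.92 to 7.92 in replicate 1, and from 3.25 to 7.09 and from 5.14 to 7.997 in replicate 2.

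The ends of the scaffolds were neither rich nor clearly poor in clusters. Within 1 Mb of an end lay 25 loci, or 0.588 per Mb, against 0.784 farther in, but narrow peaks were also fewer there, at 50.02 and 54.4 per Mb against 59.9 and 63.1. Within 2 Mb the density was 0.792 loci per Mb, against 0.767 farther in. Scaffold ends are ends of the assembled sequence and need not be telomeres. On the 14 scaffolds without a listed centromere, 5 equal stretches from the start to the end held 57, 70, 78, 78 and 65 loci.

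The kinetochore genes for which the study gives positions were not near a cluster. *KNL1* encodes a scaffold protein of the outer kinetochore, and *SURVIVIN* a subunit of the chromosomal passenger complex. The nearest locus was 1924 kb from *KNL1*, on scaffold 5 from 30858823 to 30862066, and 826 kb from *SURVIVIN*, on scaffold 10 from 18430507 to 18433455. Neighbouring loci lay a median of 783 kb apart on the scaffolds, and no other genes were set beside these for comparison. Within 2 kb of *KNL1*, a gene of 62.5 kb, lay 3 narrow peaks in replicate 1 and 2 in replicate 2. Within 2 kb of *SURVIVIN* lay 1 in each. All of these were single peaks.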

How the data were processed

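Nuclei from leaves of *Cha. luteum* gave 2 paired-end ATAC-seq libraries (151 cycles per end). Per library, the authors trimmed with fastp 0.20.0, mapped to their *Cha. luteum* scaffolds by BWA-MEM 0.7.17, filtered out duplicate reads and those with several matches (SAMtools 1.16.1, -q 30), and called peaks by MACS 3.0.0 (q threshold 0.01). Genome size, read extension and use of a control are not given in the sources consulted. Each deposited peak has a start, end and summit, a fold enrichment (a ratio to the modelled background), a -log10 p and a -log10 q. The deposited score follows the -log10 q and was not used further. Coordinates are 1-based on the authors' scaffolds, and centromere intervals, scaffold lengths and gene positions are those the study lists. A sequence file of the assembly was not used here, so no sequences are shown.

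Chains were built as described above (gap under 2000 bp, width under 1000 bp, overlap of at least 1 bp). Distances and gaps are the bases between intervals. Summit fragments n and background b were solved from fold = (n + 1)/(b + 1) and the Poisson p, and were whole numbers for 100% of the narrow peaks (tolerance 0.0001, relative to the -log10 p). They do not measure library depth, which the peak lists do not hold. The chaining was tested on simulated peak lists. The clusters, the lists and the alternatives were chosen with earlier results of these data known.

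Loci named are the 6 with the most peaks, the 3 with the smallest mean gap at equal peak number, the 3 with the highest median fold, the 3 longest, any in a centromere, the 3 closest pairs, and those nearest to *KNL1* and *SURVIVIN*, together with the scaffolds of extreme density. Alternatives changed the gap limit, width limit, q threshold, overlap and libraries, 1 at a time. Tables were handled in pandas 2.3.3 and numpy 2.4.6 under Python 3.11.15, statistics used scipy 1.17.1, and matplotlib 3.10.9 drew the plots.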

Additional observations from a re-analysis of the deposited data

Results flagged for a closer look

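Clusters also lay on sequences outside the 22 scaffolds, which the comparisons above do not use. The same rule gave 12 clusters in replicate 1 and 13 in replicate 2 on 11 sequences, with 47 of 603 and 45 of 640 narrow peaks (7.79% and 7.03%). Their peaks had a median fold of 4.21 and 4.47, close to that on the scaffolds, over a median background of 73.0 fragments in replicate 1 and 33.2 in replicate 2.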

How the results depend on the processing

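Values are means of the libraries. The rule gave 487 clusters, 155 with a gap limit of 1000 bp and 850.5 with 3000 bp. With 1000 bp, the share of narrow peaks in clusters was 1.24%, that of clusters with 4 or more peaks 9.03%, the span 2357 bp, the gap 551.75 bp, the density 0.246 per Mb, the number in centromeres 0, the share with the strongest peak in the middle 36.5% and the fold difference -0.638. With 3000 bp these were 7.28%, 23.3%, 4143 bp, 1208 bp and 1.35 per Mb, and 34.5% in the middle. With wide peaks kept, the span was 3190.5 bp, the middle share 33.1% and the fold difference -0.658. With a -log10 q of at least 5, 353 clusters were left, with 3.43% of peaks, 10.3% of 4 or more, a span of 3216.5 bp, a gap of 910.5 bp, 0 in centromeres, 34.0% in the middle and a fold difference of -0.962. With only peaks shared by the libraries, the share was 4.72%, that of 4 or more 7.48%, the middle share 33.8% and the fold difference -1.23, and with 50% overlap the fold difference was -0.588. In 1 library alone, with no overlap asked, there were 878 to 1011 clusters with 7.26% to 7.98% of peaks, 8.54% to 11.4% of 4 or more, spans of 2986 to 3016 bp, gaps of 852 to 859 bp, 1.39 to 1.60 per Mb, 3 in centromeres, 31.1% to 34.2% in the middle and a fold difference of -0.942 to -0.837. The fold difference kept its sign in all 8 alternatives. Beyond what each alternative changes by construction, causes were not tested. No paired analysis was possible because there is 1 group and no test. Read depth is unknown, and peaks under the threshold are not listed, so a chain can break where 1 weak peak is missing.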
